A study of Mus musculus with 4 samples.

Results

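The genes described here are the Notch receptors, their vascular ligands and the Hey transcription factors, 10 genes chosen by symbol: Notch1, Notch2, Notch3, Notch4, Jag1, Jag2, Dll4, Hey1, Hey2 and Heyl. All 10 were found among the 24346 rows of the deposited tables, and 9 of them passed the filter on low values and were among the 12314 genes tested. RNA was measured in 4 libraries of aorta from C57BL/6 mice aged 3 weeks, 2 labelled WT (wild type) and 2 labelled KO, a knockout of the gene for GGPPS (geranylgeranyl diphosphate synthase, symbol Ggps1), the enzyme that makes the lipid attached to many small GTPases. The labels name male and female mice for each library and give no count of animals. They do not state the cells in which the gene was removed or the removed exons. The labels do not say how the animals were divided over libraries, so the p-values reflect only how much these libraries vary, and that spread may be partly technical. The libraries of a genotype differed in sex-linked genes. Xist, made from the inactive X chromosome of females, was at 8.45 and 30.05 FPKM (wild type) against 21.9 and 35.2 FPKM (knockout). Ddx3y, on the Y chromosome, was at 19.3 and 9.49 FPKM (wild type) against 11.4 and 9.89 FPKM (knockout). The libraries of a genotype thus held male and female RNA in different proportions, and the part of this in the Notch values was not tested.

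Notch signalling passes between touching cells. A ligand of the Jagged or Delta-like family on one cell binds a Notch receptor on its neighbour, the receptor is cut first by an ADAM protease and then by gamma-secretase, and the freed intracellular part enters the nucleus, where it joins the DNA-binding protein RBPJ and switches on genes of the Hey and Hes families. In arteries Notch3 is the receptor best known from smooth muscle cells, where JAG1 from the endothelium and from neighbouring muscle cells activates it. Notch1, Notch4, Dll4 and Jag2 are better known from endothelial cells, while Notch2, Hey1 and Hey2 are used by both kinds of cell. Notch3, Jag1 and Heyl are therefore described here as the smooth muscle Notch3 axis, with Jag1 also made by endothelium, and the rest in those other 2 groups.

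Of the 9 tested members, 7 were lower in knockout, 1 was higher and 1 did not pass the test. Over all genes tested 65.7% passed, 35.2% as higher and 30.6% as lower (limma adjusted p under 0.05). The median log2 fold change, knockout minus wild type on the log2(FPKM + 1) scale, was -0.85 for the tested members and 0.03 for all tested genes. FPKM is a fragment count scaled for transcript length and library size, so levels of different genes may be compared per length. The Notch3 axis fell in 3 of 3 cases and the genes used by both cell kinds in 3 of 3. Of the 4 endothelial members Jag2 was lower, Notch4 was higher, Notch1 did not pass and Dll4 was too low to test. With the column totals made equal, the split over all genes moved from 4332 higher and 3764 lower to 3095 higher and 5620 lower and the median of all tested genes to -0.20, and no member changed direction under either rescaling of the libraries.

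Facts of the whole set were these. Ggps1 stood at 8.96 and 10.6 FPKM (wild type) against 1.18 and 1.07 FPKM (knockout), in the direction of the labels. Smooth muscle marker genes fell in 15 of 15 cases (median log2 fold change -2.21), and their summed level was 23818 and 26378 FPKM (wild type) against 5669 and 7518 FPKM (knockout). Endothelial marker genes fell in 14 of 16 tested cases (median -1.17), with sums of 410 to 411 FPKM in wild type and 172 to 190 FPKM in knockout, and 2 more, Kdr and Robo4, stayed under 1 FPKM in each library. Macrophage markers rose in 10 of 10 (median 2.43, sums 75.9 to 76.6 and 466 to 550.1 FPKM) and general leukocyte genes in 8 of 8 (median 2.67, sums 15.6 to 16.6 and 181 to 229 FPKM). Of 6 pericyte markers, 4 fell and 1 rose (median -0.76, sums 339 to 357 and 173 to 203 FPKM), and of 8 fibroblast markers, 5 fell and 2 rose (median -0.51, sums 2863 to 3417 and 3203 to 3445 FPKM). Of the lymphatic, Schwann cell and adipocyte lists only 2, 2 and 1 genes were tested. Prox1, Sox10 and Adipoq, which define those cells, stayed under 1 FPKM, at most 0.0395, 0.911 and 0.783 FPKM. In bulk tissue fewer cells of a type and less RNA per cell cannot be told apart, and the part of these marker changes in the Notch results was not tested.

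The promoters of 2 members that fell and of Notch4, which rose, are printed from RefSeq (GRCm38.p6, the assembly of mm10), from 250 bases before the transcript start to 10 after it, 5′ to 3′ on the strand of the gene. Hey2 and Notch3 are shown as the members with a matched promoter that fell most, and Notch4 as the one that rose. Capitals mark the RBPJ core TGGGAA on either strand, which reads TTCCCA on the other. The regions are chr10:30842774-30843033 (minus strand) for Hey2, chr17:32166881-32167140 (minus strand) for Notch3 and chr17:34564045-34564304 (plus strand) for Notch4.
Hey2: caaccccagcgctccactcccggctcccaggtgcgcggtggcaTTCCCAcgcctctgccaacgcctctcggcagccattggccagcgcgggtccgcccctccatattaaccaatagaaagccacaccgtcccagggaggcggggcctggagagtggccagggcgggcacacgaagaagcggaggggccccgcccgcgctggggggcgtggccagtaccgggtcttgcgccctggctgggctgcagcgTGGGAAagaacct
Notch3: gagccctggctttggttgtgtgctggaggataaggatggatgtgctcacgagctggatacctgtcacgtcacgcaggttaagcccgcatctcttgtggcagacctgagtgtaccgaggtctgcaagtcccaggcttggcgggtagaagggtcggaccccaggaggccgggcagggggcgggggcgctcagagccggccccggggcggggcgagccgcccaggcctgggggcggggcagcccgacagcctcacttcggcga
Notch4: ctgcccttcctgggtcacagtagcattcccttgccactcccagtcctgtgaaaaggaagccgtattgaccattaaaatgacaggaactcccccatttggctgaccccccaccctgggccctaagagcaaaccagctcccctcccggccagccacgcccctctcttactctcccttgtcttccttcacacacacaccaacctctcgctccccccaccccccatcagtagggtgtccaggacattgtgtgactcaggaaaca
RefSeq promoters were matched for 8 of the 10 members, all but Hey1 and Heyl. In the window of 300 bases, which goes on to 50 after the start, 1 of the 8, that of Hey2, held the core, with copies starting at -207 on the opposite strand and at -3 on the strand of the gene. Of 32851 promoters of this length 25.6% held it, so 1 of 8 is no excess, and nothing on targets against receptors can be read from it. The motif CACGTG, an E-box that Hey proteins can bind, was in 7.15% of all promoters, and the CArG box, which the muscle factor SRF binds, in 1.63%, and none of the 8 member promoters held either. The 3 motifs were searched on both strands. A match is a match of letters only. The printed stretches were 70.4% G and C for Hey2, 68.5% for Notch3 and 57.7% for Notch4.

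Notch3 (ENSMUSG00000038146.8, mm10 chromosome 17, 32120820 to 32166852, with 33 exons on the minus strand) was the most abundant receptor in wild type. It was at 23.2 and 20.5 FPKM (wild type) against 5.31 and 5.95 FPKM (knockout). The groups did not overlap, which was also true of 83.1% of all genes tested. The mean went from 21.8 ± 1.97 to 5.63 ± 0.45 FPKM (SD, n = 2), 3.88-fold lower, with a log2 fold change of -1.78 (SE 0.12, limma adjusted p = 2.76e-08). Gm17276, an annotated antisense gene, overlaps Notch3 on the opposite strand, and the sources used here do not give the strand setting of the counting, so reads of the pair cannot be told apart. The same holds for Notch1, Notch4 and Dll4, each overlapped by an annotated non-coding gene or pseudogene on the opposite strand.

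Jag1 (ENSMUSG00000027276.7, chromosome 2, 137081456 to 137116644, minus strand), the ligand of this axis, stood at 18.2 and 18.1 FPKM (wild type) against 9.46 and 11.1 FPKM (knockout). Both knockout libraries were below both wild-type ones, 1.77-fold lower by the means, and the log2 fold change was -0.77 (SE 0.12, limma adjusted p = 6.38e-05). Heyl (ENSMUSG00000032744.4, chromosome 4, 123233556 to 123249875, plus strand), a Hey-family repressor known from smooth muscle, was the most abundant of the 10 members in each library. Its values were 73.9 and 55.6 FPKM (wild type) against 21.4 and 21.2 FPKM (knockout). The wild-type libraries differed from each other more than the knockout libraries did, and both lay above them. Heyl was 3.04-fold lower, with a log2 fold change of -1.54 (SE 0.13, limma adjusted p = 1.90e-07).

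**Figure D1:**
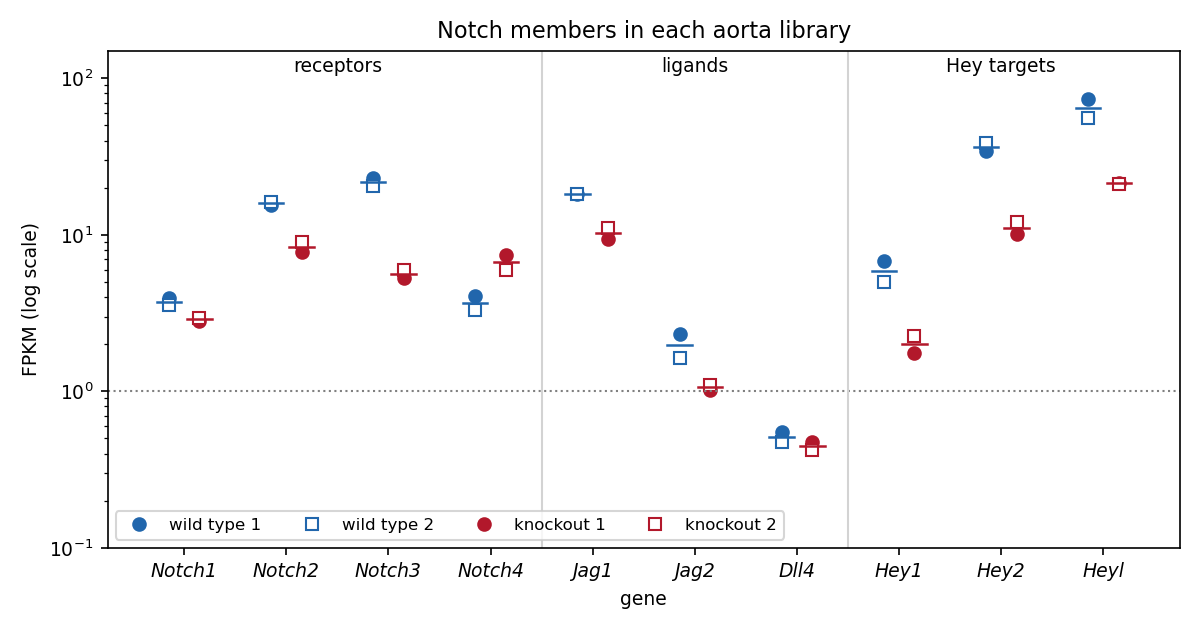
FPKM of the 10 members in each library on a log axis (blue, wild type; red, knockout; filled circles library 1, open squares library 2; short lines, genotype means; dotted line, 1 FPKM, the level used in the filter). Both knockout points lie below both wild-type points for each receptor and Hey gene apart from Notch4, where they lie above, and Dll4 stays under 1 FPKM.

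The 3 members used by both cell kinds fell as well. Notch2 (ENSMUSG00000027878.11, chromosome 3, 98013527 to 98150361, plus strand), a receptor also active in smooth muscle, was at 15.6 and 16.1 FPKM (wild type) against 7.71 and 9.03 FPKM (knockout). It was 1.89-fold lower (log2 fold change -0.85, SE 0.12, limma adjusted p = 3.04e-05), and the log2 fold change was -0.33 with length and GC trends removed. Hey2 (ENSMUSG00000019789.9, chromosome 10, 30832359 to 30842801, minus strand), a repressor of arterial endothelium and smooth muscle whose promoter, printed earlier, held 2 RBPJ cores, was at 34.3 and 38.7 FPKM (wild type) against 10.1 and 12.2 FPKM (knockout). The fall was 3.28-fold (log2 fold change -1.63, SE 0.12, limma adjusted p = 6.94e-08). Hey1 (ENSMUSG00000040289.8, chromosome 3, 8663359 to 8667256, minus strand), its close relative, was at 6.84 and 4.96 FPKM (wild type) against 1.76 and 2.27 FPKM (knockout). Hey1 was 2.93-fold lower (log2 fold change -1.19, SE 0.15, limma adjusted p = 1.10e-05), and the log2 fold change was -0.63 with a pseudocount of 5, a scale on which low genes move less.

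The 3 Hey genes moved by similar factors. Their summed level was 115.0 and 99.2 FPKM (wild type) against 33.3 and 35.6 FPKM (knockout). Heyl took 56.0% to 64.3% of that sum in wild type and 59.5% to 64.4% in knockout. Hey2 took 29.8% to 39.0% and 30.3% to 34.1%, and Hey1 5.00% to 5.95% and 5.29% to 6.37%, so for each of the 3 the ranges of the genotypes overlapped.

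Among the endothelial members Notch4 went the other way. Notch4 (ENSMUSG00000015468.14, chromosome 17, 34564268 to 34588503, plus strand), a receptor known mainly from endothelium, was at 4.04 and 3.30 FPKM (wild type) against 7.44 and 5.96 FPKM (knockout). Both knockout libraries were above both wild-type libraries. The mean rose 1.83-fold from 3.67 ± 0.52 to 6.70 ± 1.05 FPKM (SD, n = 2), with a log2 fold change of 0.72 (SE 0.14, limma adjusted p = 0.000444). The value was 1.25 with length and GC trends removed and 0.43 with a pseudocount of 5, and Notch4 was called higher in each of its 13 alternatives. In the same libraries the summed level of 10 macrophage markers was 75.9 to 76.6 FPKM (wild type) against 466 to 550.1 FPKM (knockout), and endothelial markers fell. Their part in the Notch4 value was not tested.

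Notch1 (ENSMUSG00000026923.15, chromosome 2, 26457903 to 26516663, minus strand), the receptor required for arterial endothelium, was at 3.96 and 3.54 FPKM (wild type) against 2.82 and 2.94 FPKM (knockout). It did not pass the test (log2 fold change -0.29, 95% interval -0.56 to -0.02 before adjustment, limma adjusted p = 0.0531). Its call depended on the processing: the value was -0.49 once column totals were made equal (limma adjusted p = 0.00237). It turned to 0.28 after removal of length and GC trends (limma adjusted p = 0.0257). Jag2 (ENSMUSG00000002799.6, chromosome 12, 112907819 to 112929776, minus strand), a second Jagged ligand, was at 2.33 and 1.63 FPKM (wild type) against 1.03 and 1.10 FPKM (knockout). Its log2 fold change was -0.52 (SE 0.14, limma adjusted p = 0.00426), a fall. That call ended without wild-type library 1 (log2 fold change -0.35, limma adjusted p = 0.0842) and after removal of length and GC trends (-0.11, limma adjusted p = 0.461). Dll4 (ENSMUSG00000027314.6, chromosome 2, 119325784 to 119335962, plus strand), the Delta-like ligand of arterial and sprouting endothelium, was at 0.547 and 0.474 FPKM (wild type) against 0.472 and 0.420 FPKM (knockout). It was under 1 FPKM in each library and was not tested, and with no filter its log2 fold change was -0.06 (limma adjusted p = 0.432).

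**Figure D2:**
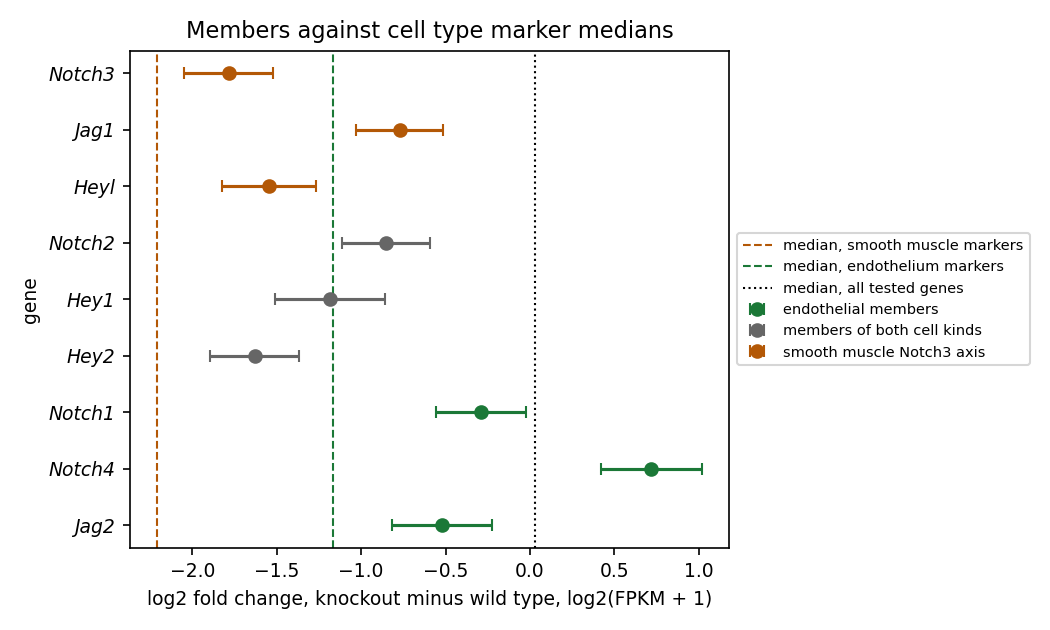
Log2 fold change of the 9 tested members (points) with 95% intervals from limma before adjustment, coloured by cell group, against the medians of the smooth muscle markers (-2.21), the endothelial markers (-1.17) and all tested genes (0.03). Notch4 is the 1 member to the right of 0, and Notch3, Hey2, Heyl and Hey1 lie between the marker medians, Hey1 right beside the endothelial one.

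The order of the levels changed with genotype. In wild type it ran from Heyl through Hey2, Notch3, Jag1, Notch2, Hey1, Notch1, Notch4 and Jag2 to Dll4, and of neighbours in that order only Notch1 and Notch4 had overlapping ranges. In knockout it ran from Heyl through Hey2, Jag1, Notch2, Notch4, Notch3, Notch1, Hey1 and Jag2 to Dll4, and only Hey2 and Jag1 overlapped. Notch3 thus stood above Notch2 in wild type and below it in knockout. Its order against Notch4 in knockout rested on library 1 (5.31 against 7.44 FPKM), since in library 2 they were nearly equal (5.95 against 5.96 FPKM). The receptors summed to 46.9 and 43.4 FPKM (wild type) against 23.3 and 23.9 FPKM (knockout). Notch3 made up 49.6% and 47.1% of that sum in wild type and 22.8% and 24.9% in knockout. Notch4 made up 8.62% and 7.60% and then 32.0% and 25.0%. Notch2 kept a similar share, 33.3% and 37.1% against 33.1% and 37.8%. Jag1 made up 86.3% to 89.6% of the summed level of the 3 ligands over the 4 libraries.

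**Figure D3:**
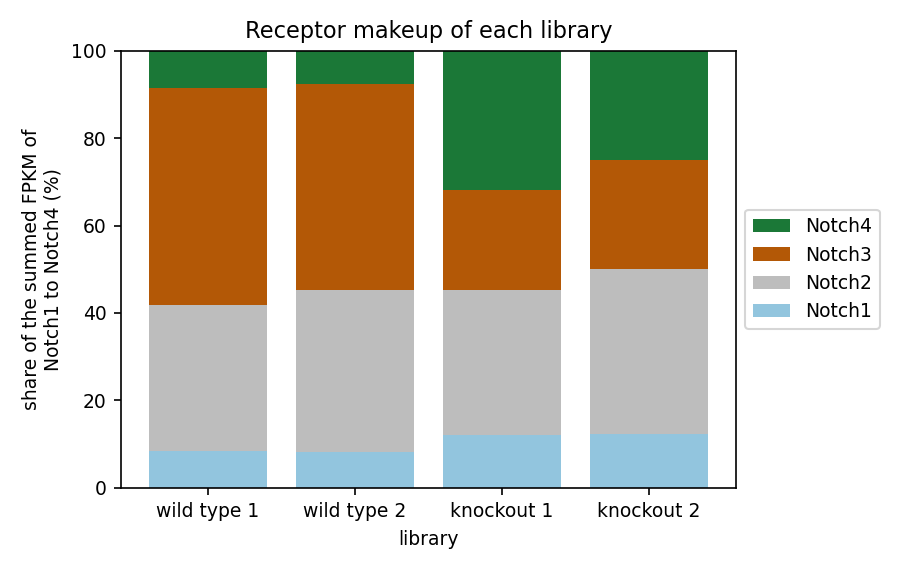
Share of the summed FPKM of the 4 Notch receptors taken by each receptor, in percent, 1 bar per library. The Notch3 part falls from 49.6% and 47.1% in wild type to 22.8% and 24.9% in knockout and the Notch4 part grows.

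The members were set against the markers of the cells they are known from, as the difference within each library between a member's log2(FPKM + 1) and the mean of the marker list. These are values over 2 libraries a genotype, for which an exact two-sided permutation test cannot give a p under 1 in 3, so no test was made. Notch3 stood at -4.34 and -4.65 relative to 15 smooth muscle markers in wild type and at -4.08 and -4.40 in knockout. The ranges overlapped, and the mean difference between genotypes was 0.25. Heyl (-2.71 and -3.25, then -2.25 and -2.72) also overlapped, with a difference of 0.49. Jag1 and Notch2, which fell themselves, were higher relative to these markers in knockout, by 1.26 and 1.18, as the markers fell more. Against the endothelial markers the Notch2 difference was only 0.22, and Jag1 was not set against them. Hey1 had a difference of 0.85 against the smooth muscle markers and of -0.12 against the endothelial ones. Relative to 16 endothelial markers Notch4 went from -1.82 and -2.02 to 0.09 and -0.36, a difference of 1.79. Notch1 and Jag2 were higher relative to the same markers by 0.78 and 0.55, as their own values fell less than the markers did. Dll4 was higher by 1.005, but it was under 1 FPKM, where log2(FPKM + 1) can move little. With no filter its own log2 fold change was -0.06, so its difference mostly repeats the fall of the markers. Jag2, at 1.03 to 2.33 FPKM, is partly held by the same scale, and so, to a lesser degree, is Hey1, at 1.76 to 6.84 FPKM. Hey2 was lower relative to the endothelial markers by 0.56 and higher relative to the smooth muscle markers by 0.40. The mean of the endothelial markers itself moved by -1.07 and that of the smooth muscle markers by -2.04. A gene that did not change would thus stand higher in knockout by as much, and the median of all tested genes was 0.03. Of the members only Notch4 passed that mark.

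**Figure D4:**
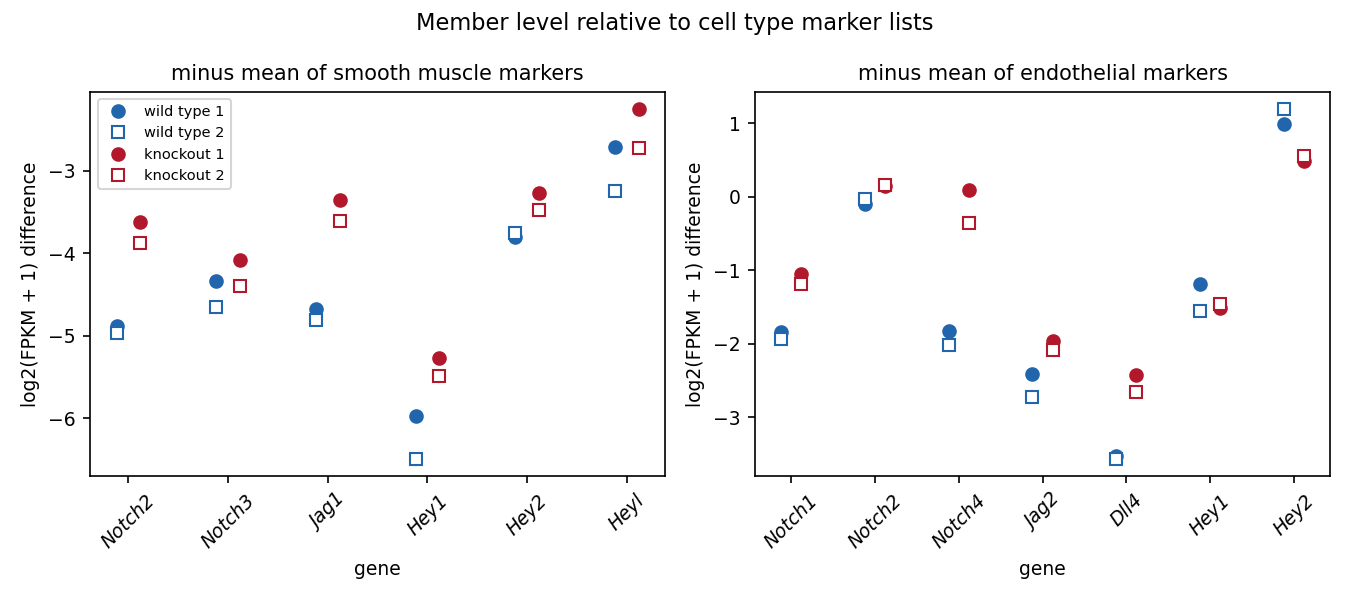
Difference between a member's log2(FPKM + 1) and the mean of 15 smooth muscle markers (left) or 16 endothelial markers (right) in the same library, with wild type in blue and knockout in red. Notch3 overlaps between genotypes on the left, and Notch4 has the widest gap on the right, 1.79.

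Transcript length moved with the fold change over all genes, so each tested member was set beside genes of its own length. Notch1, Notch2 and Notch3 have longest transcripts of 9488, 10500 and 8016 bases. Of 654 tested genes of 8000 bases or more, 52.8% were lower and 11.8% higher (median log2 fold change -0.34). Notch4 (6591 bases), Jag1 (5612) and Jag2 (5106) fall among 2083 genes of 5000 to 8000 bases, of which 42.8% were lower and 17.7% higher (median -0.21). Heyl (4537 bases) falls among 4306 genes of 3000 to 5000 bases, of which 31.1% were lower and 31.0% higher (median -0.01). Hey1 (2423) and Hey2 (2550) fall among 3721 genes of 1500 to 3000 bases, of which 23.2% were lower and 44.9% higher (median 0.21). The Hey1 and Hey2 falls and the Notch4 rise therefore ran against the median of their length class. With length and GC trends removed, Notch3 was at -1.21, Heyl at -1.40, Hey2 at -1.89 and Hey1 at -1.40, each still called lower.

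The rest of the pathway was more mixed. Over 55 further genes of the pathway, 45 were tested, of which 8 were higher, 21 lower and 16 did not pass (median log2 fold change -0.11). The 29 called of 45 are close to the 65.7% called over all genes. By direction, the 21 lower and 8 higher of 45 stand beside 30.6% lower and 35.2% higher over all genes. In the list of other ligands, 5 of 5 tested genes fell (median -1.02). Dll1 was the only Delta-like ligand tested there, and the rest were secreted or matrix proteins. Dll1, a Delta-like ligand above 1 FPKM in each library and named after its value was seen, was at 3.16 and 2.70 FPKM in wild type and 1.25 in both knockout libraries, and it fell by 0.80 on the log2 scale (limma adjusted p = 7.33e-05). The microfibril proteins Mfap5 and Mfap2, which can bind Jagged ligands, had log2 fold changes of -1.36 and -0.76, the secreted Egfl7 of endothelium -1.197 and Nov, a matricellular protein, -1.02. Dll3, Dlk1, Dlk2 and Dner were under 1 FPKM.

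Of 9 tested genes of receptor cleavage, 3 rose and 3 fell (median 0.06). Of these calls only that of Aph1b held in each alternative. The protease Adam10 was called higher, at 0.30, but was at 0.050 once column totals were made equal (limma adjusted p = 0.686). Furin was called lower, at -0.26. Within gamma-secretase, Psenen rose from 118 ± 1.21 to 190 ± 15.2 FPKM (log2 fold change 0.68, limma adjusted p = 3.47e-05), while the alternative subunit Aph1b fell by 0.89. The Psenen call ended after removal of length and GC trends (log2 fold change 0.13, limma adjusted p = 0.155). The protease Adam17 fell by 0.37, and without wild-type library 1 or 2 the value was -0.32 and -0.41 while the call ended (limma adjusted p = 0.161 and 0.0658). Aph1a was called higher by 0.29. The call was lost in 7 of its 13 alternatives, including those that dropped either wild-type library (limma adjusted p = 0.0729 and 0.348) or the first knockout library (0.0817). With column totals made equal the Aph1a value was 0.027 (limma adjusted p = 0.826), and after removal of length and GC trends 0.16 (limma adjusted p = 0.147).

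Genes that glycosylate the receptor fell in 3 of 5 cases (median -0.41). The Fringe enzyme Rfng fell from 31.6 ± 0.67 to 16.6 ± 0.38 FPKM (log2 fold change -0.89, limma adjusted p = 6.43e-06) and Mfng by 0.53. Pofut1, which adds the first fucose, fell by 0.41, and without wild-type library 1 or 2 the value stayed at -0.40 and -0.41 while the call ended (limma adjusted p = 0.0776 and 0.0701). Of 7 genes of ligand uptake, 3 rose and 1 fell (median 0.09). The ubiquitin ligase Neurl1a rose from 0.600 ± 0.069 to 3.79 ± 0.88 FPKM (log2 fold change 1.57, limma adjusted p = 4.18e-07) and its relative Neurl1b by 0.64. Both were under 1 FPKM in wild type, so they entered the test through the knockout libraries. The dynamin Dnm2 rose by 0.45, and its call ended without wild-type library 1 (log2 fold change 0.39, limma adjusted p = 0.0557) and once column totals were made equal (0.19, limma adjusted p = 0.0999). Epn2, an endocytic adaptor, fell by 0.34, and its call was lost when either wild-type library (log2 fold change -0.35 and -0.33, limma adjusted p = 0.108 and 0.132) or the first knockout library (-0.17, limma adjusted p = 0.139) was dropped, and with no filter (limma adjusted p = 0.0794).

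In the nuclear complex 4 of 6 tested genes were lower (median -0.50). The coactivators Maml2, Ep300 and Kat2b were lower, with log2 fold changes of -0.85, -0.67 and -0.67, and Maml1 fell by 0.34, which was not called once wild-type library 1 or 2 was dropped (log2 fold change -0.33 and -0.35, limma adjusted p = 0.152 and 0.137). After removal of length and GC trends the Maml1 value was -0.067 (limma adjusted p = 0.469). Rbpj was at 14.3 and 14.1 FPKM (wild type) against 16.4 and 17.2 FPKM (knockout), a log2 fold change of 0.23 that did not pass (limma adjusted p = 0.0888). Rbpj was called higher after removal of length and GC trends (0.30, limma adjusted p = 0.0121) and without knockout library 1 (0.26, limma adjusted p = 0.0491). Of 11 inhibitors and turnover genes, 5 fell and 2 rose (median -0.29). The Deltex gene Dtx3 fell from 197 ± 13.2 to 92.3 ± 7.44 FPKM and Dtx1 by 0.91, while Dtx2 rose by 0.65 and Dtx4 by 0.40. The Dtx4 call ended without wild-type library 2 (log2 fold change 0.32, limma adjusted p = 0.173) and once column totals were made equal (0.17, limma adjusted p = 0.204).

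Targets outside the Hey family did not all follow it. Nrarp, a target that inhibits Notch in turn, was at 4.80 and 4.14 FPKM (wild type) against 1.91 and 1.74 FPKM (knockout) and fell by 0.95 (SE 0.13, limma adjusted p = 1.73e-05). Hes1, the widely used Hes-family target, was at 13.2 and 12.6 FPKM (wild type) against 15.2 and 15.6 FPKM (knockout). Its log2 fold change of 0.24 did not pass (95% interval -0.0026 to 0.48 before adjustment, limma adjusted p = 0.0757). Hes6 was at 0.14 (limma adjusted p = 0.265), and Hes2, Hes5, Hes7 and Helt were under 1 FPKM. The difference between Hes1 and the Hey genes was not tested.

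Of 7 genes listed here as dependent on Notch3 in arterial smooth muscle, 5 fell and 1 rose. Their median was -2.25, beside the median of -2.21 for smooth muscle markers. Grip2, a scaffold protein, was at 60.8 and 61.5 FPKM (wild type) against 6.73 and 9.65 FPKM (knockout), 7.47-fold lower (log2 fold change -2.78, SE 0.14, limma adjusted p = 1.39e-09). Smtn, Myh11 and Cnn1, of the contractile apparatus, were lower, with log2 fold changes of -1.52, -2.66 and -2.25. These 3 and Acta2 are also in the smooth muscle marker list, so of the genes that fell only Grip2 is outside it. Nrip2, a nuclear receptor corepressor, went the other way, from 0.804 and 0.413 FPKM to 3.31 and 3.47 FPKM (log2 fold change 1.46, limma adjusted p = 6.87e-07), and it too entered the test through the knockout libraries. Pdgfrb, a receptor of mural cells, was at -0.22 and did not pass (limma adjusted p = 0.0706). Pdgfrb was called lower once column totals were made equal (-0.48, limma adjusted p = 0.000679), with median ratio scaling (-0.24, limma adjusted p = 0.0323) and without knockout library 2 (-0.27, limma adjusted p = 0.0325).

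Of 8 tested genes of arterial endothelium, 5 fell and 1 rose (median -0.87), beside the median of -1.17 for endothelial markers. Sox17, a factor of arterial identity, was at 14.7 and 12.4 FPKM (wild type) against 4.95 and 4.60 FPKM (knockout) and fell by 1.33 (limma adjusted p = 6.98e-07). The kinase Bmx fell by 1.38, the receptor Acvrl1 by 1.04 and the connexin Gja5 by 1.03, while the guidance receptor Unc5b rose by 0.57. Of the 3 tested venous genes Nr2f2 fell by 1.196, and Nrp2 rose by 0.84 from under 1 FPKM in wild type. Ephb4 was at -0.25 and did not pass (limma adjusted p = 0.0619). It was called lower once column totals were made equal (-0.50, limma adjusted p = 0.000822) and with median ratio scaling (-0.27, limma adjusted p = 0.0254).

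**Figure D5:**
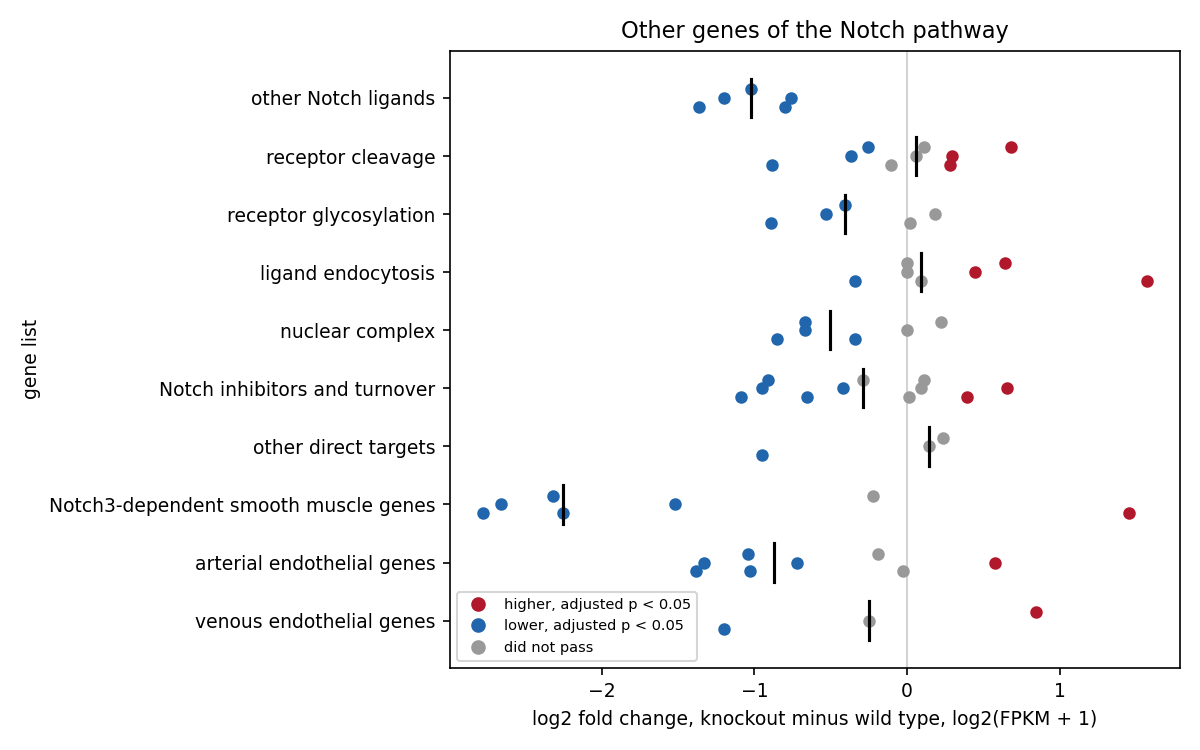
Log2 fold change, knockout minus wild type, of each tested gene in 10 lists of Notch-related genes, coloured by the limma call, with a black line at the list median. The list of other ligands, which holds Dll1 beside secreted and matrix proteins, lies wholly to the left of 0, with a median of -1.02. The cleavage and endocytosis lists lie on both sides, with medians of 0.06 and 0.09.

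Genes whose values over the 4 libraries ran closest to those of Notch3 and Notch4 were sought among 8480 tested genes that averaged 5 FPKM or more, by the Euclidean distance between log2(FPKM + 1) values centred on each gene's mean. For Notch3 they were Tbxa2r, the thromboxane receptor, Per2, a circadian clock gene, Tmem200b, Srpk3 and Tob2, at distances of 0.064 to 0.12. Tbxa2r was at 38.7 and 34.3 FPKM (wild type) against 8.90 and 9.90 FPKM (knockout). For Notch4 they were Nfkbil1, Tmem256, Tmem160, Emc6 and Pgp, at distances of 0.042 to 0.091. Nfkbil1 was at 9.97 and 8.69 FPKM (wild type) against 17.9 and 14.2 FPKM (knockout). With 4 libraries such likeness mostly ranks genes by fold change.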

How the data were processed

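RNA of 4 aorta libraries was analysed, 2 per genotype, grouped by the genotype label. The labels give no pairing and no batch. Per the file headers, the values the authors deposited are FPKM, under a misspelt form of the unit. Among tools, DESeq2 1.16.1, HISAT2 2.0.5 and featureCounts 1.5.0-p3 appear in the submitters' processing notes beside the build mm10, with no role. Which program made the FPKM was not given in the sources used here. Low values showed no common step (the most frequent ratio of 2 libraries covered at most 0.347% of genes under 0.3 FPKM), so the depth is unknown. Eln was listed at 0 in each library, so a low value is a listed value only.

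Genes that reached 1 FPKM in 2 or more libraries were tested with limma 3.58.1 (R 4.3.3, intensity trend) on log2(FPKM + 1), with Benjamini-Hochberg adjustment over all 12314 genes and calls made under 0.05. Any gene under 1 FPKM in one genotype could pass only through the other. The fitting code was separately tested on simulated data, and each reported value is from the deposited libraries. Folds are ratios of mean FPKM. Lengths, GC content and coordinates are from GENCODE M21, which matched 99.3% of tested genes. Genes named were the members, Ggps1, up to 4 called genes of a pathway list by smallest adjusted p with up to 5 called against its majority, up to 2 genes of a list with no call, and the 5 genes nearest to Notch3 and to Notch4. Genes of cell type lists are given as counts, apart from Kdr, Robo4, Prox1, Sox10, Adipoq, Pecam1, Tek, Tie1 and Cdh5, named outside these rules. Genes added after their values were seen include Dll1, Hes1, Hes6, Rbpj, Pdgfrb, Adam10, Furin and Ephb4. The members and lists were chosen with earlier results of these data known. Alternatives were other pseudocounts, filters, scalings and variance models, removal of length and GC trends, and leaving out each library.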

Additional observations from a re-analysis of the deposited data

How the results depend on the processing

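Each of the 9 tested members was refitted under up to 13 alternatives, 114 values in all, of which 107 kept direction and call. The 7 members Notch2, Notch3, Notch4, Jag1, Hey1, Hey2 and Heyl did so in each alternative in which they were tested. Notch3 ranged from -2.02 to -1.21, Heyl from -1.80 to -1.34, Hey2 from -1.89 to -1.36 and Notch4 from 0.43 to 1.25 on the log2 scale. Notch1 was called lower with a pseudocount of 5 (-0.15), equal column totals (-0.49), median ratio scaling (-0.31) and no trend (-0.29), and higher with length and GC trends removed (0.28). That made the members called higher 2 in place of 1. Jag2 was not called with length and GC trends removed (-0.11), and ranged from -0.69 to -0.35 when single libraries were left out. Of 29 called pathway genes outside the members, 17 kept their call in each alternative. Furin (0.041) and Spen (0.0093) changed sign with length and GC trends removed, and Mib2, not called in the reported fit, was called lower with equal column totals (-0.25) and higher with length and GC trends removed (0.21). The causes were not tested beyond the construction of each alternative. A fit without 1 library leaves a genotype with 1 sample, assumed to vary like the other genotype. No paired analysis was possible because the labels number no library as a partner of another. Depth is unknown, so precision rests on 2 libraries per genotype.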

Other observations

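The genes next to Notch4 on chromosome 17 were examined after its value was seen. Of 8 tested genes within 50 kb on either side in RefSeq (GRCm38.p6), 2 were higher in knockout by limma and none lower, beside 35.2% called higher over all genes, so the neighbours showed no excess. Gpsm3, which follows Notch4 at 34589806 to 34591754, was at 1.98 and 2.05 FPKM (wild type) against 5.11 and 2.86 FPKM (knockout) (log2 fold change 0.69, SE 0.18, limma adjusted p = 0.00362). Rnf5 was higher by 0.30 (limma adjusted p = 0.0160). The next gene, Pbx2, was at -0.19 and did not pass (limma adjusted p = 0.187), and Agpat1, Egfl8, Ppt2, Ager and Prrt1 did not pass either. Gpsm3 is known from leukocytes, and general leukocyte genes rose in 8 of 8 cases in these libraries. Their part in the values of Gpsm3 and Notch4 was not tested.

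Kdr, the main VEGF receptor of endothelium, was listed at 0.134 and 0.202 FPKM (wild type) against 0.174 and 0.232 FPKM (knockout), far under Pecam1 at 147 and 158 FPKM in wild type. Robo4 was listed at similarly low values, 0.123 to 0.252 FPKM, and Dll4 at somewhat higher ones, 0.420 to 0.547 FPKM. Tek, Tie1 and Cdh5 were at 9.65 FPKM or more in both wild-type libraries.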
